A study of Solanum tuberosum with 2 samples.

Results

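Aquaporin PIP2-1-like (PGSC0003DMG400020906) and aquaporin TIP1-1 (PGSC0003DMG400028182) were followed in the mRNA of in vitro potato (Solanum tuberosum L. cv. Desirée, wild type). They were found by identifier, as 2 of the 40430 features quantitated. The names are those given by the annotation of the study's ultrasound work, which placed TIP1-1 among the genes that differed at 0 h and PIP2-1-like among those that differed at 48 h. The cut library came from node explants with a leaf, taken from plantlets 4 weeks old, and the uncut library from intact plantlets of the same age. Each was 1 library, pooled from 3 biological replicates according to the methods, so no difference between cut and uncut has a replicate check. The labels give leaf as the tissue of both samples, whereas the treatment text speaks of whole plantlets and of node segments, so that cutting and a difference in organs cannot be told apart.

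Aquaporins, also called major intrinsic proteins, are membrane channels through which water moves along an osmotic gradient. Those of the plasma membrane (plasma membrane intrinsic proteins, PIPs) let water into and out of the cell, and those of the tonoplast (tonoplast intrinsic proteins, TIPs) let it pass between the cytosol and the vacuole. Plants hold many such genes, and their transcripts are known to respond to drought and to abscisic acid in ways that differ between genes and organs.

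Both aquaporins had more reads in the cut explants than in the intact plantlets. They were chosen by the difference in log2 RPM between these libraries, so their levels are given as a description, with no test. Levels are expressed as reads per 1000000 total reads (RPM), and intervals are exact 95% intervals that cover counting error only. The total was 33850937 reads for the cut and 37955483 reads for the uncut library, so that 3 reads, taken as the limit for a count of 0, corresponded to 0.0886 RPM (cut) and 0.0790 RPM (uncut). A gene was called higher or lower in the cut explants when its log2 RPM differed by at least 2 and it had at least 50 reads over both libraries. By this rule, 8.25% of the 21688 genes with enough reads were higher (1789 genes) and 7.35% were lower (1595 genes). The median difference over all of these genes was -0.33, and scaling by the median ratio, which brings this median to about 0, gave 2222 higher and 1097 lower genes.

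PIP2-1-like, a channel of the plasma membrane by its name, lies on chromosome 9 from 5809494 to 5813147 on the plus strand (SolTub 3.0). It had 5763 reads in the cut explants, or 170 RPM (95% interval 166 to 175). In the intact plantlets it had 175 reads, or 4.61 RPM (3.95 to 5.35). The intervals of the libraries lay far apart, and the level was high in the cut explants and low in the intact plantlets. On the log2 scale this was 7.41 in cut against 2.20 in uncut, a difference of 5.21 (4.99 to 5.43), which is a 36.9-fold higher value in the cut explants (31.8 to 43.2). Of the genes with enough reads, 278 (1.28%) had a larger difference. The level of PIP2-1-like exceeded that of 89.6% of these genes in the cut explants and of 22.1% in the intact plantlets.

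TIP1-1, a channel of the vacuolar membrane of the group first described as gamma-TIP in Arabidopsis, lies on chromosome 10 from 55272336 to 55274167 on the minus strand. It had 1891 reads in the cut explants, or 55.9 RPM (53.4 to 58.4). In the intact plantlets it had 437 reads, or 11.5 RPM (10.5 to 12.6). Here too the intervals did not overlap, but the libraries stood closer together than for PIP2-1-like. The log2 values were 5.80 in cut and 3.53 in uncut, a difference of 2.28 (2.13 to 2.43), or 4.85-fold higher in the cut explants (4.37 to 5.40). A larger difference was found for 1493 genes (6.88%). TIP1-1 exceeded 71.7% of the genes in the cut explants and 35.2% in the intact plantlets. The study named TIP1-1 at 0 h from a comparison in which this same cut library was the non-ultrasonicated control, so its level there is not independent of that choice.

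**Figure D1:**
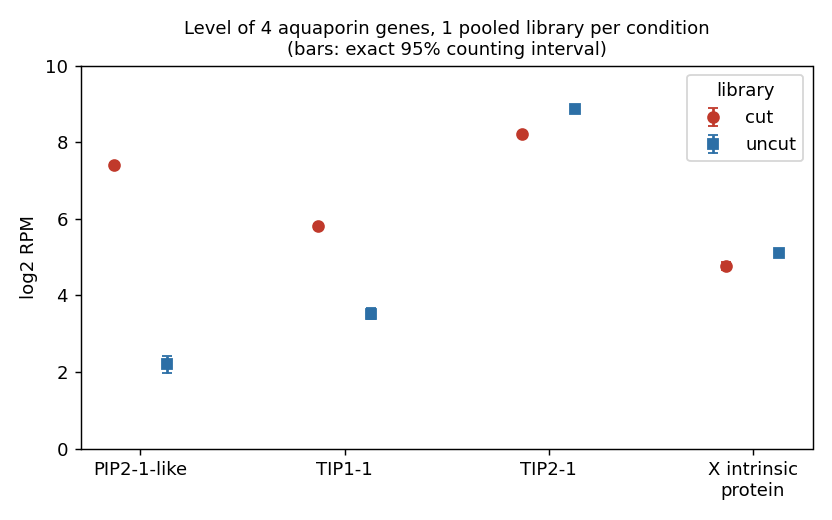
Level in log2 RPM (vertical axis) of 4 aquaporin genes in the cut library (circles, left of each pair) and the uncut library (squares, right), with exact 95% counting intervals as bars. PIP2-1-like stands at 7.41 in cut against 2.20 in uncut and TIP1-1 at 5.80 against 3.53, while TIP2-1 and the X intrinsic protein are slightly lower in the cut library.

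The difference was larger for PIP2-1-like than for TIP1-1. In the cut explants 3.05 reads of PIP2-1-like were counted for each read of TIP1-1, and in the intact plantlets 0.400 reads. Depth and gene length cancel in the ratio of these values, which was 7.61 (exact conditional interval 6.32 to 9.19), or 2.93 on the log2 scale (2.66 to 3.20). The interval compares the libraries and not the conditions, since each condition had 1 library. Other choices of scaling or pseudocount left both genes higher by the rule, as 6 of 6 alternatives called both. The scalings shifted the differences by -0.0011 to 0.34, so only the pseudocounts could have taken a gene below the rule. With a pseudocount of 1, TIP1-1 had 2.18. With the rule set at a difference of 3, TIP1-1 would no longer be called, whereas PIP2-1-like would.

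The study's annotation names 2 further genes of the family, and neither was called by the rule. Aquaporin TIP2-1 (PGSC0003DMG400002552, chromosome 3, 59891573 to 59893134, minus strand), of the delta-TIP group of the tonoplast, had 10011 reads in the cut explants, or 296 RPM (290 to 302). In the intact plantlets it had 17714 reads, or 467 RPM (460 to 474). This made it the most abundant of the named aquaporins in both libraries, with a difference of -0.66 (-0.69 to -0.62). The X intrinsic protein (PGSC0003DMG400004438, chromosome 10, 46377234 to 46378784, minus strand), of a family that is known in potato and other dicots but lacking in Arabidopsis, had 924 reads in the cut explants, or 27.3 RPM (25.6 to 29.1). In the intact plantlets it had 1319 reads, or 34.8 RPM (32.9 to 36.7), a difference of -0.35 (-0.47 to -0.23). Relative to the median of all genes with enough reads, the differences were 5.54 for PIP2-1-like, 2.61 for TIP1-1, -0.32 for TIP2-1 and -0.015 for the X intrinsic protein, so the last gene stood at the median. The 2 genes that were not called carried the larger counts in the intact plantlets.

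Levels were compared between the aquaporins per kb of gene span, introns included, because exon lengths were not used here. In the cut explants the order was TIP2-1 with 189 RPM per kb (186 to 193), PIP2-1-like with 46.6 (45.4 to 47.8), TIP1-1 with 30.5 (29.1 to 31.9) and the X intrinsic protein with 17.6 (16.5 to 18.8). In the intact plantlets TIP2-1 had 299 RPM per kb (294 to 303), the X intrinsic protein 22.4 (21.2 to 23.6), TIP1-1 6.28 (5.71 to 6.90) and PIP2-1-like 1.26 (1.08 to 1.46). No neighbours in either order had overlapping counting intervals. Reads were counted in exons, however, and these intervals leave out the error of dividing by span. The order between genes is therefore not settled by them. PIP2-1-like was second of the 4 in the cut explants and last in the intact plantlets. The span of PIP2-1-like was 3654 bp, against 1832 bp for TIP1-1, 1562 bp for TIP2-1 and 1551 bp for the X intrinsic protein.

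The reads summed over the 4 genes changed little between the libraries, while their make-up did not stay the same. The sum was 549 RPM in the cut explants and 518 RPM in the intact plantlets. PIP2-1-like took 5763 of the 18589 summed reads in the cut explants (exact binomial interval 30.3% to 31.7%) and 175 of the 19645 in the intact plantlets, or 0.891% (0.764% to 1.03%). TIP1-1 took 10.2% (9.74 to 10.6) in cut and 2.22% (2.02 to 2.44) in uncut, whereas TIP2-1 took 53.9% (53.1 to 54.6) in cut and 90.2% (89.7 to 90.6) in uncut. PIP2-1-like and TIP1-1 were chosen by their difference between these libraries. Their larger shares in the cut explants, and the smaller share of TIP2-1, follow from that choice and are given as a description. These are shares of reads and not of transcripts, and they leave out aquaporins that the study's annotation does not name.

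**Figure D2:**
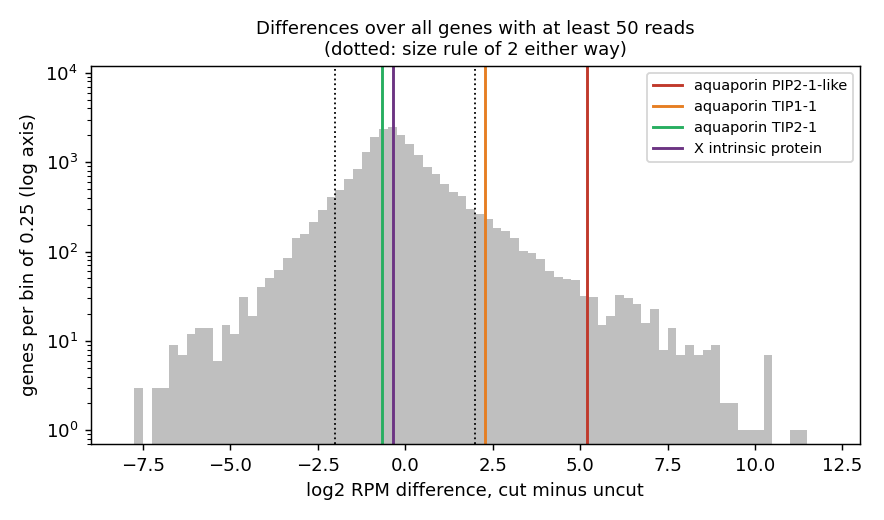
Number of genes (vertical axis, log scale) by log2 RPM difference, cut minus uncut (horizontal axis, bins of 0.25), for the 21688 genes with at least 50 reads, with the 4 aquaporins as coloured lines and the size rule dotted. PIP2-1-like at 5.21 lies far out in the right tail, TIP1-1 at 2.28 just beyond the rule, and TIP2-1 and the X intrinsic protein near the peak of the distribution.

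The genes with a name in the study's annotation whose levels came closest to those of each aquaporin were sought by the Euclidean distance over the log2 RPM of the 2 libraries, among genes with at least 50 reads. Nearest to PIP2-1-like was a homeobox-leucine zipper protein ATHB-12-like (PGSC0003DMG400000248, chromosome 1, 73906356 to 73907795), which was also the nearest of all genes, at a distance of 0.19. ATHB-12 is known in Arabidopsis as a transcription factor induced by water deficit and abscisic acid. The potato gene had 5177 reads in cut and 162 in uncut, a difference of 5.16 (4.94 to 5.40). Genes carry a name in the study's annotation because they differed after ultrasound. This one was named at 0 h, with the cut library as control, and at 1 week. Next were basic 7S globulin-like (PGSC0003DMG400008985), with 6596 reads in cut against 122 in uncut at a distance of 0.56, and E3 ubiquitin-protein ligase PUB23-like (PGSC0003DMG400021325), with 3959 against 228 reads at a distance of 0.66. PUB23 in Arabidopsis is a ubiquitin ligase that acts in responses to drought and to microbes. Counted over all genes, with or without a name, these were the 17th and the 26th nearest. Within a distance of 0.5 there were 13 genes in all around PIP2-1-like.

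TIP1-1 had more genes of like levels, 78 within the same distance. The nearest with a name was probable protein phosphatase 2C 24 (PGSC0003DMG400030332), at a distance of 0.23. It had 1788 reads in cut and 377 in uncut, a difference of 2.41 (2.25 to 2.57). Pathogenesis-related protein PR-1 (PGSC0003DMG400043108) had 1884 reads in cut against 520 in uncut at a distance of 0.25, and protein DMR6-LIKE OXYGENASE 2-like (PGSC0003DMG400026277) had 1292 against 470 at a distance of 0.56. Over all genes these were only the 23rd, the 28th and the 107th nearest. With only 2 libraries this likeness says no more than that the genes shared a level in each.

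**Figure D3:**
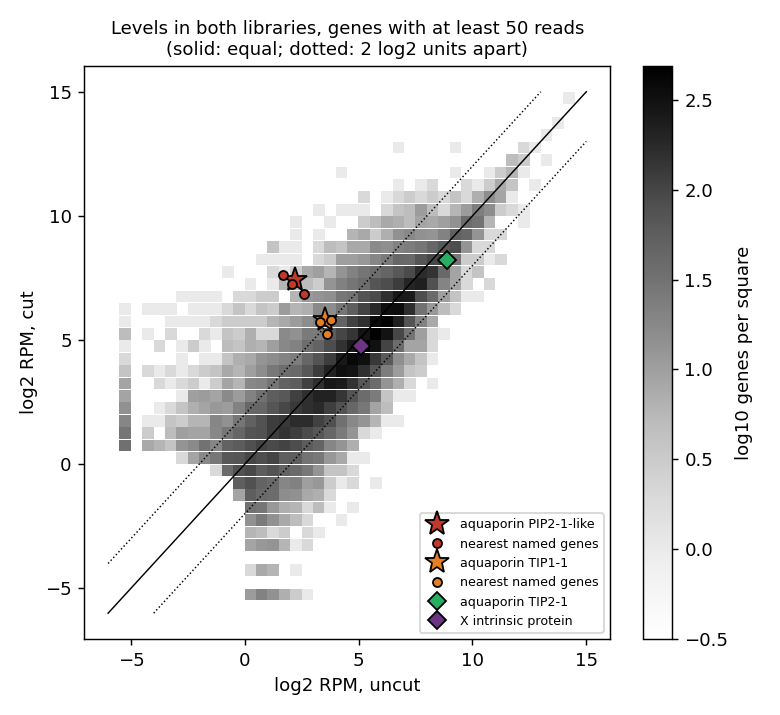
Log2 RPM in the cut library (vertical axis) against the uncut library (horizontal axis) for genes with at least 50 reads, shown as the number of genes per square, with the solid line at equal levels and the dotted lines 2 log2 units away. The stars of PIP2-1-like (7.41 cut, 2.20 uncut) and TIP1-1 (5.80 cut, 3.53 uncut) lie above the upper dotted line with most of their nearest named genes (small circles), and the diamonds of TIP2-1 and the X intrinsic protein lie by the solid line.

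The aquaporins were set beside genes of water deficit and abscisic acid, a list drawn from the names in the study's annotation. Of its 11 genes, 6 (54.5%) were higher in the cut explants by the rule, against 8.25% of all genes with enough reads. A further 2 (18.2%) were lower, against 7.35%, and 3 lay in between. The median difference was 2.41, against -0.33 over all genes with enough reads. These genes had entered the study's annotation because they differed after ultrasound, 4 of the 11 at 0 h and so with the cut library as control. All 4 were among the 6 higher genes, and each higher gene described in this paragraph is 1 of them. The count is therefore not independent of these samples. The highest was the ATHB-12-like gene described above. 9-cis-epoxycarotenoid dioxygenase, the enzyme of the rate-limiting step of abscisic acid synthesis, had 7937 reads in cut and 315 in uncut, a difference of 4.82. Abscisic acid and environmental stress-inducible protein TAS14, a dehydrin known from tomato, had 4895 reads in cut and 672 in uncut, a difference of 3.03. Under the median ratio 6 were higher and 1 was lower. The lowest of the list was late embryogenesis abundant protein At5g17165-like, with 292 reads in cut and 2464 in uncut, a difference of -2.91 (-3.09 to -2.74). Genes of this theme thus lay on both sides, with PIP2-1-like at the level of the highest and TIP1-1 slightly below the median of the list.

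Of 11 genes for other transporters and channels, 1 was higher, 1 was lower and 9 lay in between, with a median of 0.05. These shares were near those over all genes with enough reads, of which 84.4% lay in between. In this list 3 genes had been named at 0 h with the cut library as control, the higher gene among them. The higher was ABC transporter G family member 11-like, which in Arabidopsis exports cuticular lipids, with 411 reads in cut against 1 in uncut and a difference of 8.85 (6.36 to 14.2), imprecise because of the lone read. The lower was potassium channel AKT2/3-like, known from the phloem in Arabidopsis, with 583 reads in cut and 4561 in uncut and a difference of -2.80 (-2.93 to -2.68). Of the transporters of the vacuolar membrane, vacuolar cation/proton exchanger 3 had 8618 reads in cut and 18863 in uncut (-0.97), and its 3-like relative had 235 and 135 reads (0.96), so neither reached the difference of TIP1-1.

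The expansins and xyloglucan endotransglucosylases, which loosen the wall of growing cells, held 1 higher and 3 lower genes among 9, with a median of -1.47. Over all genes with enough reads 8.25% were higher and 7.35% lower, against 11.1% and 33.3% in this list. Probable xyloglucan endotransglucosylase/hydrolase protein 16 was the higher, with 712 reads in cut and 41 in uncut (4.28, interval 3.83 to 4.77). Xyloglucan endotransglucosylase/hydrolase 2-like was the lowest, with 5581 reads in cut and 72936 in uncut (-3.54, interval -3.58 to -3.50). A difference below 0 was found for 6 of the 9, against 63.2% of all genes with enough reads. Xyloglucan endotransglucosylase/hydrolase 2-like and xyloglucan endotransglucosylase/hydrolase protein 9, which make up 2 of the 3 lower genes, had been named at 0 h with the cut library as control. When the median ratio or the TMM factor was used for scaling, 2 of the 9 were higher and 2 lower.

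Because the organs of the samples are not settled, the markers of organs were read in the same libraries. Of 8 leaf markers, nuclear chlorophyll a-b binding proteins and carbonic anhydrase, 0 were higher and 1 was lower, which is near the shares over all genes (8.25% and 7.35%). Their median difference was -0.81 against -0.33 over all genes, and their summed level was 191 RPM in cut and 270 RPM in uncut. They ranged in difference from -2.42 for chlorophyll a-b binding protein 50 (175 reads in cut and 1052 in uncut) to 0.21 for chlorophyll a-b binding protein 4 (1066 and 1034 reads). Of 6 root markers, 1 of them also among the transporters, 0 were higher and 3 (50%) were lower, against 8.25% and 7.35% of all genes. Their median difference was -1.93. The summed level was 530 RPM in cut and 818 RPM in uncut. Most of the cut sum was metal transporter Nramp5, with 413 RPM in cut and 274 RPM in uncut. Over the 5 markers other than Nramp5 the sum was 117 RPM in cut and 545 RPM in uncut. Of this, CASPARIAN STRIP INTEGRITY FACTOR 2-like alone gave 25.9 RPM in cut and 330 RPM in uncut. The uncut sum without Nramp5 thus rests largely on 1 gene, whereas in cut CASP-like protein 4D1 gave more, with 51.5 RPM. CASP-like protein 1, by its name a relative of the proteins of the Casparian strip of the root endodermis, had 11 reads in cut and 915 in uncut (-6.21, interval -7.22 to -5.37). The other CASP-like gene of the list, CASP-like protein 4D1, had 1743 and 1742 reads (0.17), and Nramp5 had 13987 and 10390 reads (0.59). Of 7 markers of xylem and secondary walls, 0 were higher and 5 (71.4%) were lower, against the same 8.25% and 7.35% of all genes. Their median difference was -2.24, and their summed level was 32.3 RPM in cut and 124 RPM in uncut. They ranged from -2.61 for COBRA-like protein 4 (235 reads in cut and 1611 in uncut) to -0.14 for a xylem cysteine proteinase 1-like gene (393 and 487 reads). Every marker of these lists had entered the study's annotation because it differed after ultrasound, and all 7 vascular markers did so at 48 h. Carbonic anhydrase and Nramp5 were named at 0 h with the cut library as control, so the leaf and root lists are not independent of these samples. Scaling by the median ratio left 2 of the root and 3 of the vascular markers lower by the rule. No marker of these lists was at 0 in either library. The medians of the root and vascular lists thus lay further below that of all genes than the median of the leaf list did, and the part of the organs in the aquaporin differences was not tested. Fewer cells of a type and less RNA per cell cannot be told apart in such samples.

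**Figure D4:**
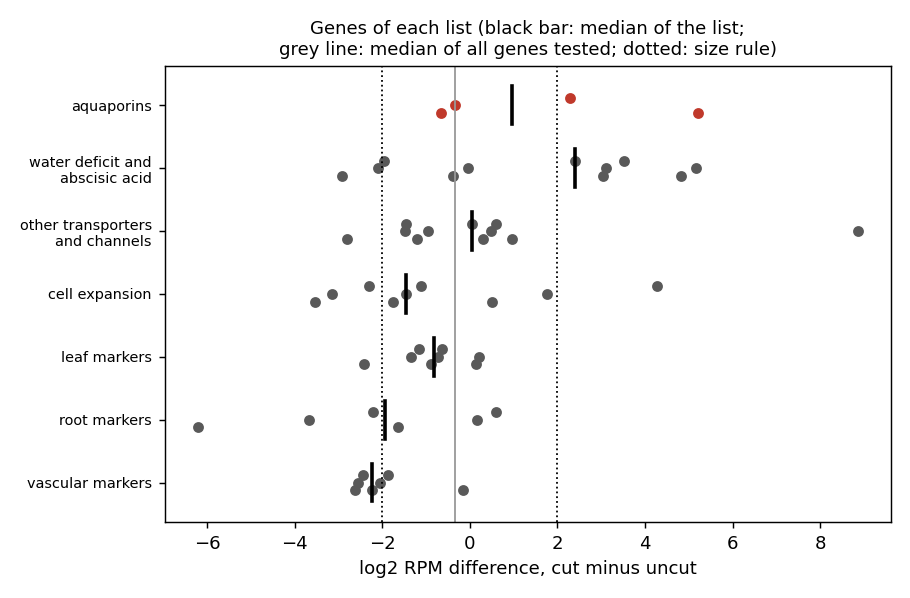
Log2 RPM difference, cut minus uncut (horizontal axis), of each gene in 7 lists (rows), with the median of the list as a black bar, the median of all genes tested (-0.33) as a grey line and the size rule dotted. Of the aquaporins (red) 2 lie beyond the rule on the right, as do 6 of the 11 water deficit and abscisic acid genes, whereas 5 of the 7 vascular markers lie beyond it on the left. Of all genes tested, 8.25% lie beyond the rule on the right and 7.35% on the left. The lists hold genes that were named because they differed after ultrasound.

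The genes next to each aquaporin on its chromosome were examined, 5 on either side. No other gene of the table overlapped the span of either aquaporin. Of the 10 neighbours of PIP2-1-like, over a stretch of 334 kb, 6 had at least 50 reads. Of these 6, 2 were higher by the rule and 0 were lower, against 8.25% and 7.35% of all genes with enough reads. The median difference of the 6 was 0.16. The higher genes were PGSC0003DMG401020908, which ends 5.06 kb before the start of PIP2-1-like, and PGSC0003DMG402020908, which ends 16.9 kb before it. Both lie on the minus strand, and the sources used here give no name for them. Their identifiers share their last digits, and whether they are parts of 1 gene was not tested. PGSC0003DMG401020908 had 1564 reads in cut and 36 in uncut, a difference of 5.61 (5.13 to 6.13), which overlaps the interval of PIP2-1-like. PGSC0003DMG402020908 had 3248 reads in cut and 224 in uncut, a difference of 4.02 (3.83 to 4.22). On the other side, the neighbours with enough reads had differences from -0.96 to -0.52.

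The neighbourhood of TIP1-1 was different. Of its 10 neighbours, over 98.8 kb, 6 had enough reads. Of these 6, 0 were higher and 0 were lower, which is near the shares over all genes (8.25% and 7.35%). Their differences lay between -1.74 and -0.68, with a median of -1.06, so that each was below 0 and also below the median of all genes. The closest downstream in coordinates, PGSC0003DMG400028280 at 5.01 kb, had 2754 reads in cut and 5602 in uncut (-0.86). TIP1-1 was the only gene of that stretch with at least 50 reads and a difference above 0.

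**Figure D5:**
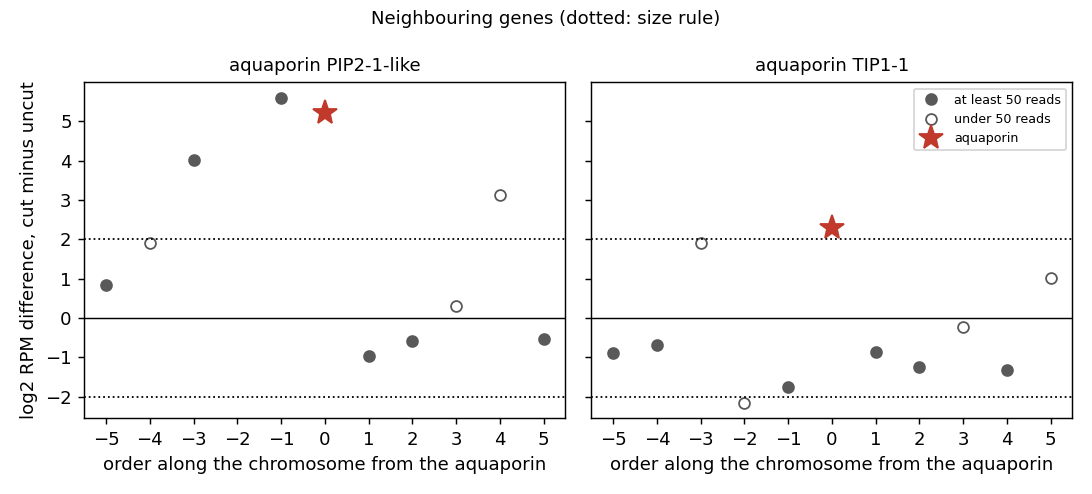
Log2 RPM difference, cut minus uncut (vertical axis), of PIP2-1-like (left panel) and TIP1-1 (right panel) and of their neighbours with reads by order along the chromosome (horizontal axis), with filled circles for at least 50 reads, open circles for fewer and the size rule dotted. Next to PIP2-1-like 2 genes on its left reach 5.61 and 4.02, and the neighbours of TIP1-1 with enough reads lie between -1.74 and -0.68.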

How the data were processed

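The authors trimmed the reads with Trim Galore 0.5.0, used HISAT2 2.1.0 to align the read pairs to SolTub 3.0, and kept those of mapping quality 60. In SeqMonk they counted the reads in the exons of each gene, corrected for total reads and deposited log2 RPM values; the cutting study is said to share these methods save for minor differences. Unique alignment can remove reads shared by near-identical aquaporin genes.

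Here reads per gene were computed from the steps between values. Within 0.05 read, 100% of the 24538 (cut) and 23919 (uncut) values between 1 and 10000 reads were whole. Reads on genes (60081924 in cut, 67314360 in uncut) exceeded the totals, so mates of 1 pair may have been counted separately, which would make the intervals too narrow. No p-value was computed, as each condition had 1 library.

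Named were both aquaporins, the other named aquaporins, the largest and smallest difference of each list (others given as examples were chosen after their values were seen) and the 3 nearest named genes. Members and lists were chosen with earlier results of these data known. The best protein matches that the study's annotation gives for 3 of the 4 aquaporins are in the RefSeq gene table of SolTub_3.0, as LOC102587816 (PIP2-1-like), LOC102589703 (TIP1-1) and XIP1-1-BETA. Sequences were not used here. Procedures were tested on simulated data. Python 3.11.15, numpy 2.4.6, scipy 1.17.1 and pandas 2.3.3 were used.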

Additional observations from a re-analysis of the deposited data

How the results depend on the processing

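PIP2-1-like and TIP1-1 stayed above and TIP2-1 below 0 under all 6 scalings and pseudocounts tried, whereas the X intrinsic protein came within its counting interval of 0 under the median ratio and the TMM factor. Scaling by the median ratio gave 5.54 for PIP2-1-like, 2.61 for TIP1-1, -0.32 for TIP2-1 and -0.013 for the X intrinsic protein, and the TMM factor gave 5.51, 2.58, -0.36 and -0.046 in the same order. The upper quartile gave -0.51 for TIP2-1 and -0.20 for the X intrinsic protein. On the log2(RPM + 1) scale PIP2-1-like had 4.93. The scalings shift all genes alike, whereas the pseudocounts do not. Among all genes, without a minimum on reads, 3007 were called higher and 2486 lower. The limit of 1 in place of 2 called 3550 and 4881, and the limit of 3 called 937 and 528. With a pseudocount of 1, the number of lower genes was 857. The share of higher among called genes was 52.9% as reported, 66.9% under the median ratio and 65.4% under the TMM factor. The difference between PIP2-1-like and TIP1-1 lay at 2.75 or more under both pseudocounts. Depth limits PIP2-1-like in uncut most, with 175 reads. No paired analysis was possible because cut and uncut were represented by 1 library each, which also left none to omit.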

Other observations

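Among the 1908 other genes whose level in the intact plantlets lay within 0.5 log2 RPM of that of PIP2-1-like, 176 (9.22%) were higher in the cut explants by the rule and 11 had a difference at least as large as its own. Around TIP1-1 there were 2517 such genes, of which 159 (6.32%) were higher by the rule and 125 had a difference at least as large. The median difference was -0.29 in the first set and -0.47 in the second. These comparisons describe these libraries and were chosen after the values of the aquaporins were known.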
